A study of Homo sapiens with 12 samples.

Results

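This comparison sets THP-1 cells exposed to poultry dust extract for 3 h against THP-1 cells exposed to the same extract for 1 h. It compares 4 of the 12 arrays of the study, 2 at 3 h and 2 at 1 h, chosen by their titles. Normalization, the probe filter and the estimate of spread behind each SE and p-value drew on all 12 arrays, BEAS-2B controls included. The 2 THP-1 arrays in medium alone serve as the reference level, and 4 arrays of BEAS-2B cells at the same times were used for a comparison of 12 genes. THP-1 is a human line grown from a monocytic leukemia, and BEAS-2B a human bronchial epithelial line that was immortalized. All cells, controls included, were kept without serum overnight (16 h or more) before exposure. THP-1 cells received 0.1% extract and BEAS-2B cells 0.25%, so that dose and line differ together. How long the control cells were kept in medium is not stated. Nor is it stated whether replicate arrays came from separate cultures, so that a p-value here reflects array-to-array spread that could be technical.

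A monocyte that meets microbial products answers in waves. Genes that need no new protein, such as those of the EGR and AP-1 transcription factors, TNF and several chemokines, are transcribed within minutes, and many of their short-lived messages are then removed by proteins such as ZFP36, which bind AU-rich elements. Proteins made in the first wave, together with lasting NF-kB activity, drive later genes of cytokine subunits, cell-surface receptors and survival factors. Organic dust from poultry houses carries bacterial cell-wall material, proteases and fine particles, and inhalation of it is associated with airway inflammation.

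Levels are background-corrected, quantile-normalized log2 intensities. They compare arrays for 1 probe and not probes with each other. Because the label for the source of the THP-1 cells reads A459, markers were read first. Of 11 monocyte markers on the array, 11 were above background in the control, 1 h and 3 h groups, and their summed linear intensity was 89078 to 89343 at 1 h and 87445 to 87642 at 3 h. Single markers moved more than this sum. At 3 h against 1 h, limma called 4 lower (FCGR1A, PTPRC, CSF1R and CD14) and 1 higher (SPI1), with a median of -0.33 log2. Over all features 22.6% were called lower and 16.8% higher. Of 10 epithelial markers, 1 was above background in control, 0 at 1 h and 1 at 3 h, against 10 in BEAS-2B control. Their summed intensity was 562 to 574 at 1 h and 593 to 708 at 3 h, near the level of absent genes. Of 10 A549 markers, 2 were above background in each THP-1 group, with sums of 680 to 748 at 1 h and 775 to 1002 at 3 h. No fibroblast marker of 9 was above background, and 2 to 3 of 9 lymphocyte markers were. Replicate arrays correlated at 0.984 to 0.995 within a group, and the median SD between replicates was 0.130 log2 at 1 h and 0.158 log2 at 3 h. Before normalization the 75th percentile of the raw signal was 126 and 127 on the THP-1 3 h arrays and 144 to 181 on the others. Raw medians were 78.2 and 76.3 on the THP-1 3 h arrays and 78.4 to 84.3 on the others. The cause of the lower percentile was not tested. Fewer cells and less RNA per cell, among other causes, cannot be told apart in such samples.

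Between 1 h and 3 h the THP-1 profile changed broadly. Of 15489 features tested (11422 named genes and 4067 probes without a name), limma called 6116, or 39.5%, at an adjusted p under 0.05. Of these, 2609 (16.8%) were higher and 3507 (22.6%) lower at 3 h. A change of at least 2-fold was called for 1184 higher features (7.64%) and 1458 lower features (9.41%). For reference, 1 h against control gave 255 calls (1.65%) and 3 h against control 7067 (45.6%). A fit to the THP-1 arrays alone called 4796 features between 1 h and 3 h, 2043 higher and 2753 lower. With scaling by the median in place of quantile normalization the split was 1481 higher and 4863 lower, and the median change of all features moved from -0.03 to -0.21. Directions below are relative to a median gene near no change.

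Features were sorted by the 2 steps, control to 1 h and 1 h to 3 h. A late rise or late fall was called after 1 h with at least a 2-fold change, while 1 h against control was not called and under 2-fold. Continued rise, decay, continued fall and rebound were called in both steps. The 1 h arrays enter both steps, so that an error in them pushes the steps in opposite directions. The classes are therefore a description without a test. The leading genes named from each class were picked among those whose 3 h and 1 h arrays did not overlap. Their lack of overlap between these times is thus no result. There were 1094 late rises, 98 continued rises, 30 decays, 1422 late falls, 26 continued falls and 9 rebounds. A further 3437 features (22.2% of those tested) were called after 1 h but met the limits of no class. Of the 195 features called higher at 1 h (1.26% of all), 98 were called higher again, 30 were called lower, and 67 were not called after 1 h. Of the 60 called lower at 1 h (0.387% of all), 26 were called lower again, 9 were called higher and 25 were not called. The classes called in both steps depended on single arrays. Continued rises numbered 52 and 50 without 1 h replicate 1 or 2 and 60 and 61 without control replicate 1 or 2, and decays 15 without 1 h replicate 2. Continued falls numbered 3 to 9 without a 1 h or control array, and rebounds 4 without either 1 h array and 16 and 14 without 3 h replicate 1 or 2.

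**Figure D1:**
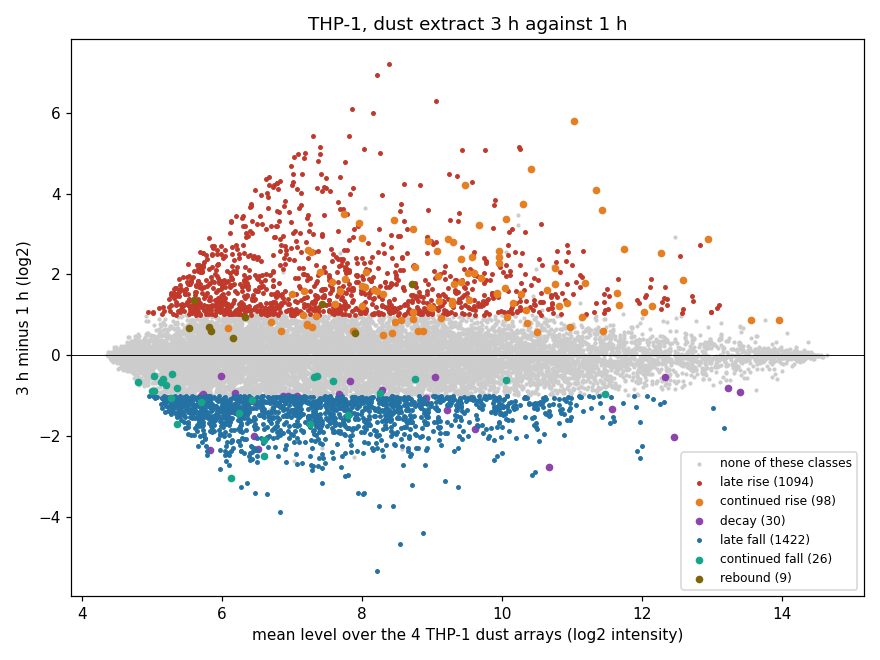
Change from 1 h to 3 h (log2, vertical) against the mean level over the 4 THP-1 dust arrays (log2 intensity, horizontal), 1 point per feature, coloured by class. The 1094 late rises and 1422 late falls form the wide arms above and below 0, and the 30 decays lie below 0 at mean levels from about 6 to above 13.

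The late rises held the largest changes. Their median was 1.53 log2, 318 reached a 4-fold change or more, 53 reached 16-fold, and 326 were below background on both 1 h arrays. At 3 h, 1063 of the 1094 were also called higher than control, as were 19.1% of all features. The limits of the class nearly fix that side of control, so this count is no separate result. Just inside the 2-fold limit lay H2AC21 at 1.00 log2, and just outside it DTNA at 0.998 log2.

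IL7R, the receptor chain for interleukin 7, was at 4.77 and 4.81 log2 on the 1 h arrays, 4.78 and 4.80 in control and 11.90 and 12.08 at 3 h. It was not above background at 1 h or in control, and both 3 h arrays lay far above. It rose at least 82.9-fold (7.20 ± 0.41 log2, SE, 2 arrays against 2, adjusted p = 9.57e-07). Each SE is limma's estimate from the spread within the groups of all 12 arrays. For IL7R that spread includes BEAS-2B 3 h arrays at 8.67 and 7.19. STAT4, the transcription factor that carries interleukin 12 and 23 signals, stood at 5.94 and 6.32 in control, 5.86 and 5.96 at 1 h, and 12.14 and 12.28 at 3 h. Its 1 h arrays overlapped the controls, and it rose 78.9-fold after 1 h (6.30 ± 0.19, adjusted p = 2.92e-08). LAMP3, a lysosomal protein of mature dendritic cells, moved from 4.65 and 4.86 at 1 h to 11.32 and 12.04 at 3 h, at least 67.0-fold (6.93 ± 0.20, adjusted p = 2.92e-08). TRAF1, a signal adaptor of TNF receptors, moved from 5.55 and 5.40 to 10.74 and 10.42, at least 31.3-fold (5.11 ± 0.20). Both were likewise not above background in control or at 1 h. A second probe of each gene rose less, by 3.40 log2 for LAMP3 and 2.57 log2 for TRAF1.

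CCL22, a chemokine for regulatory and type 2 T cells, was at 7.02 and 7.41 in control, 6.72 and 7.08 at 1 h and 11.22 and 12.72 at 3 h, a 33.6-fold rise (5.07 ± 0.37, adjusted p = 4.3e-06). ADORA2A, an adenosine receptor that restrains inflammation, rose 63.9-fold (6.00 ± 0.45) from 4.73 and 5.57 to 10.97 and 11.34. Only 1 of its 1 h arrays was above background, so that fold is not exact. SERPINE2, a secreted inhibitor of thrombin and urokinase, rose 35.6-fold (5.15 ± 0.31) from 7.46 and 7.88 to 13.08 and 12.56. For each of these genes no 3 h array overlapped a 1 h array, which was a condition for naming them.

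MT2A, a zinc-binding metallothionein, was at 7.71 and 8.34 in control, 7.32 and 8.12 at 1 h and 12.52 and 13.11 at 3 h, which made a 34.2-fold rise (5.10 ± 0.28, adjusted p = 8.77e-07). SRXN1, which repairs oxidized peroxiredoxins, was at 7.09 and 6.91 at 1 h and 11.65 and 11.34 at 3 h and rose 22.5-fold (4.49 ± 0.16, adjusted p = 7.58e-08). In both genes the 3 h arrays stood apart from the 1 h and control arrays. G0S2, an inhibitor of fat breakdown, rose at least 39.2-fold (6.09 ± 0.38), GADD45G, a stress-induced binding protein of cell cycle control, 27.4-fold (4.78 ± 0.22), with 1 of its 1 h arrays above background, and RAB27B, a small GTPase of vesicle secretion, 32.1-fold (adjusted p = 3.32e-08). A dimmer RAB27B probe rose by 1.40 log2.

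**Figure D2:**
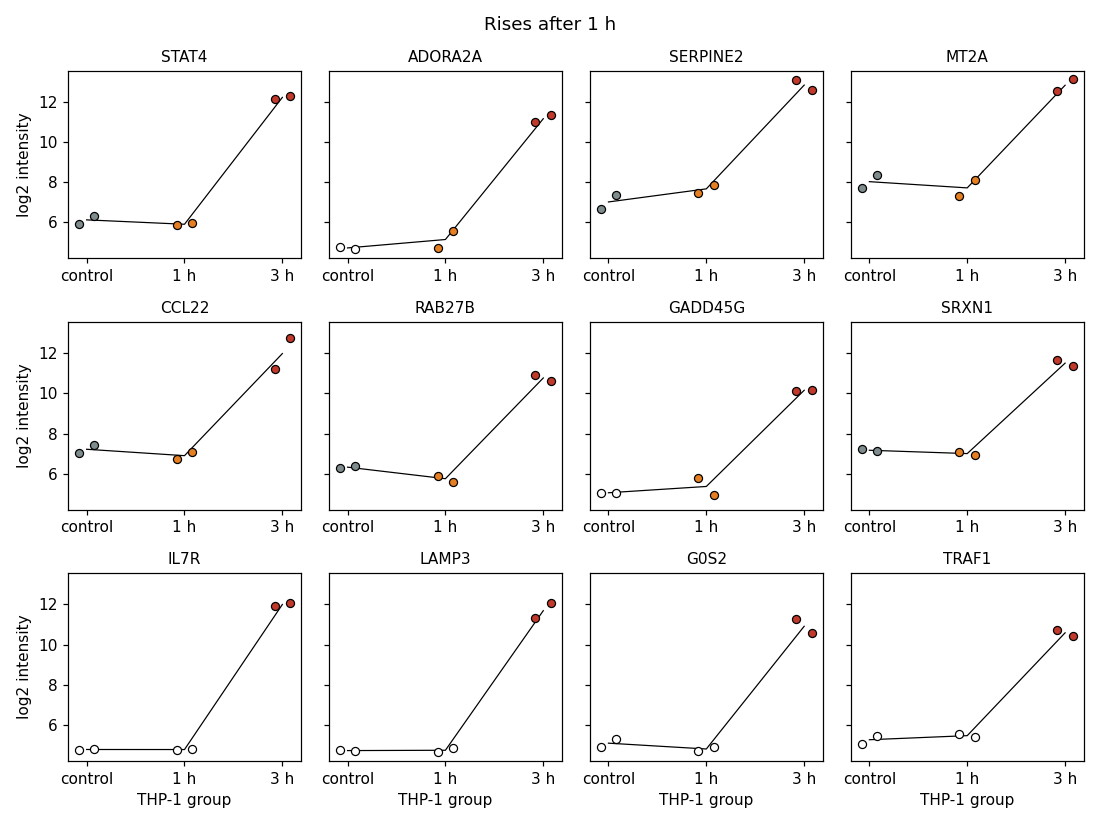
Log2 intensity on each THP-1 array in control, at 1 h and at 3 h for 12 late rises, with a line through the group means. Open circles mark groups in which neither array was above background. Both 3 h arrays lie above the 1 h and control arrays in each panel, in STAT4 at 12.14 and 12.28 against 5.86 and 5.96 at 1 h. The lack of overlap with 1 h was a condition for naming these genes.

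The continued rises were led by subunits of the interleukin 12 family. IL23A, the p19 subunit of interleukin 23, stood at 6.16 and 6.59 in control, 8.14 and 8.13 at 1 h and 13.98 and 13.88 at 3 h. It had risen 3.38-fold at 1 h (1.76 log2, adjusted p = 0.000401) and then rose a further 55.5-fold (5.79 ± 0.18, adjusted p = 2.92e-08). EBI3, the subunit shared by interleukins 27 and 35, followed from 5.78 and 5.99 through 8.26 and 7.97 to 12.80 and 12.63, a 24.2-fold rise after 1 h (4.60 ± 0.31). In both genes the 3 groups did not overlap, and the second step was the larger one in log2. IL12B, the p40 subunit that pairs with p19, came later: it was below background at 1 h (4.89 and 4.79) and reached 7.70 and 8.02 at 3 h, at least 4.74-fold (3.02 ± 0.19, adjusted p = 1.74e-06).

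IGFBP3, a carrier of insulin-like growth factors, and CCN2, a matricellular protein, were below background in control and climbed in both steps. IGFBP3 went from 9.10 and 9.49 at 1 h to 13.14 and 13.64 at 3 h (17.1-fold, 4.10 ± 0.27), and CCN2 from 9.35 and 9.91 to 13.40 and 13.07 (12.2-fold, 3.61 ± 0.22). The adaptor kinase IRAK2, which carries interleukin 1 and Toll-like receptor signals, rose a further 13.4-fold (3.74 ± 0.34) and the interleukin 18 receptor chain IL18R1 11.3-fold (3.50 ± 0.19). The heparan sulfate proteoglycan SDC4 rose 10.4-fold (3.38 ± 0.46), the elongin-binding chromatin factor EPOP 18.6-fold (4.22 ± 0.14), and the mitochondrial superoxide dismutase SOD2 7.32-fold (2.87 ± 0.15), to 14.40 and 14.38. That SOD2 probe ended near the highest value of any probe, 14.66, and the other probes rose by 4.11 and 2.58 log2. CCL20, a chemokine for dendritic cells and lymphocytes, went from 11.26 and 10.73 to 13.83 and 13.25 (5.83-fold, 2.54 ± 0.91, adjusted p = 0.0479). Its groups did not overlap, yet the call was lost when any 1 of the 6 THP-1 arrays was left out (adjusted p from 0.0663 to 0.181) and without the filter (0.127). The SE is shared with BEAS-2B, whose 3 h arrays lay at 12.80 and 8.81, and with THP-1 arrays alone the change was 2.74 log2 (adjusted p = 0.000431).

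Promoter windows of RefSeq (GRCh38.p14, 250 bases before to 50 after the start of transcription) were read for an NF-kB motif, GGG and TTCC with any 3 bases between them, searched on both strands. It was found in 12 of 65 windows of continued rises (18.5%), 62 of 634 of late rises (9.78%), 1 of 19 of decays (5.26%) and 65 of 1024 of late falls (6.35%). Of all named genes tested with a window, 694 of 9202 (7.54%) held it, and of the 27305 windows of all genes 1766 (6.47%) did. A match describes letters and not a bound site. Motifs named AP-1, CRE and ARE core were searched as well and are not described here. The 250 bases before the start are shown for 1 continued rise, EBI3 (chr19:4229273-4229522, plus strand), and for 1 late rise, CXCL6 (chr4:73836428-73836677, plus strand), with matches in capitals. In CXCL6 the capitals hold a match on each strand, shifted by 1 base.
EBI3: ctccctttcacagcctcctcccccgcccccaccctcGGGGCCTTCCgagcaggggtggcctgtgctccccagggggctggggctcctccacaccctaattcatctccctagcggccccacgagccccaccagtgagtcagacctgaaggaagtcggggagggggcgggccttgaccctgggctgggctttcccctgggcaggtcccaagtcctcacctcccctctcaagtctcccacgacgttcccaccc
CXCL6: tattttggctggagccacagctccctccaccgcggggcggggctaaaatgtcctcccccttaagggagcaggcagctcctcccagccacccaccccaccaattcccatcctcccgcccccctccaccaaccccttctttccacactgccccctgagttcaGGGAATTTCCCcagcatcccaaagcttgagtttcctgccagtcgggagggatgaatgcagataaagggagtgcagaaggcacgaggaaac

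The decays fell into a small class of 30 features, 26 of them named. At 3 h, 15 were still called higher than control, 13 were not called against control, and 2, B3GNT2 and ALKAL1, were called lower than control. The largest measured decay was in EGR1, a zinc-finger transcription factor of the immediate-early response. It stood at 7.16 and 7.07 in control, 11.85 and 12.25 at 1 h, and 9.43 and 9.16 at 3 h. The 3 groups did not overlap: EGR1 fell 6.76-fold after 1 h (-2.76 ± 0.21, adjusted p = 5.6e-06) and stayed 2.18 log2 above control (adjusted p = 1.75e-05). EGR1 was the 1 of 19 decay genes with a window that held a CArG box, the binding sequence of serum response factor. The box was found in 1.29% of all windows and 1.09% of windows of named genes tested. It lay in 2 of 65 windows of continued rises (3.08%), 3 of 634 of late rises (0.473%) and 8 of 1024 of late falls (0.781%). The 250 bases before the start of EGR1 (chr5:138465229-138465478, plus strand) hold the box at positions -105 and -83, in capitals.
EGR1: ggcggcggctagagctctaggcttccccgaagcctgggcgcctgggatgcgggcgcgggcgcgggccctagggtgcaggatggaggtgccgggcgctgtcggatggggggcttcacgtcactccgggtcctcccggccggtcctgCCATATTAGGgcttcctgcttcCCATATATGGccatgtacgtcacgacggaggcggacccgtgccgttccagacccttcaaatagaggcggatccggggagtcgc

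ZFP36, which directs AU-rich messages to decay, stood at 10.69 and 10.88 in control, 13.35 and 13.59 at 1 h and 11.53 and 11.35 at 3 h. It fell 4.09-fold (-2.03 ± 0.23, adjusted p = 8.42e-05) and at 3 h lay 0.66 log2 above control. PTGER4, the EP4 receptor for prostaglandin E2, went from 12.27 and 12.21 to 10.97 and 10.83, close to its control level of 10.52 and 10.57 (-1.34 ± 0.21, adjusted p = 0.000669). SPRY1, an inhibitor of receptor kinase signalling, was above background at 1 h alone, at 6.79 and 7.21, and fell at least 2.24-fold (-2.34 ± 0.20, adjusted p = 1.05e-05). These genes lay apart at 1 h and 3 h on every array, as the rule for naming them required. PNRC1, a nuclear receptor coactivator, fell 2.24-fold (-1.17 ± 0.19), from 7.24 and 6.88 to 6.12 and 5.67, with 1 of its 3 h arrays above background.

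Some early transcription factors had 1 h arrays far apart. EGR3 was at 9.37 and 11.71 at 1 h and at 9.02 and 8.39 at 3 h, a 3.55-fold fall (-1.83 ± 0.56, adjusted p = 0.0247). Without 1 h replicate 2 its change was -0.66 (adjusted p = 0.112), and without 3 h replicate 2 the adjusted p was 0.122. EGR4, at 5.90 and 7.86 at 1 h and below background at 3 h, fell at least 2.07-fold (-1.33 ± 0.45, adjusted p = 0.0392), but the call was lost without any 1 THP-1 array other than 1 h replicate 1 (adjusted p from 0.054 to 0.181). ATF3, a stress-induced repressor, fell 2.07-fold (-1.05 ± 0.35, adjusted p = 0.0373), and its call was lost without either control array (adjusted p = 0.0502), 1 h replicate 2 (0.222) or 3 h replicate 2 (0.245). TOB1, an antiproliferative adaptor of deadenylation, fell 2.55-fold and the GTP-binding protein GEM 2.01-fold. Leaving out 1 h replicate 2 or 3 h replicate 2 ended both calls (TOB1 -0.88 and -0.92 log2, GEM -0.61 and -0.60). With 1 THP-1 array left out at a time, TOB1 stayed in the class in 2 of 6 fits and GEM in 4. The other GEM probes changed by -1.22 and -0.86 log2 and were not called (limma, adjusted p = 0.0509 and 0.0579). With THP-1 arrays alone the calls of EGR3, EGR4 and GEM were lost (adjusted p 0.0762, 0.109 and 0.0598), and without the filter those of EGR3, EGR4 and ATF3 (0.0698, 0.102 and 0.0935). ALAS1, ARID5A, EGR1, IER2, PNRC1, PTGER4, SPRY1 and ZFP36 are the named genes that stayed in the class with any 1 of the 6 THP-1 arrays left out.

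Below control at 3 h were B3GNT2, a glycosyltransferase of poly-lactosamine chains, which fell at least 3.56-fold from 7.66 and 7.67 to 5.53 and 5.19, and ALKAL1, a ligand of the ALK and LTK receptors, which fell at least 3.09-fold from 7.60 and 7.32 to 5.52 and 5.39. With 1 THP-1 array left out at a time, B3GNT2 kept both calls in 2 of 6 fits and ALKAL1 in 3. CCL3, a monocyte chemokine, went from 13.51 and 14.21 to 13.17 and 12.75 (1.87-fold lower, adjusted p = 0.0143). Its near copy CCL3L1 fell 1.75-fold (adjusted p = 0.0301). Neither CCL3 nor CCL3L1 was called without 1 h replicate 2 or without 3 h replicate 2. The related CCL3L3 changed by -0.58 log2 without a call (adjusted p = 0.197). Probes of these copies share sequence and cannot be told apart with certainty. The integrated stress response phosphatase subunit PPP1R15A fell 1.46-fold (-0.54, adjusted p = 0.0144), a call that was lost without 1 h replicate 1 (adjusted p = 0.0668) or 3 h replicate 2 (0.100).

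**Figure D3:**
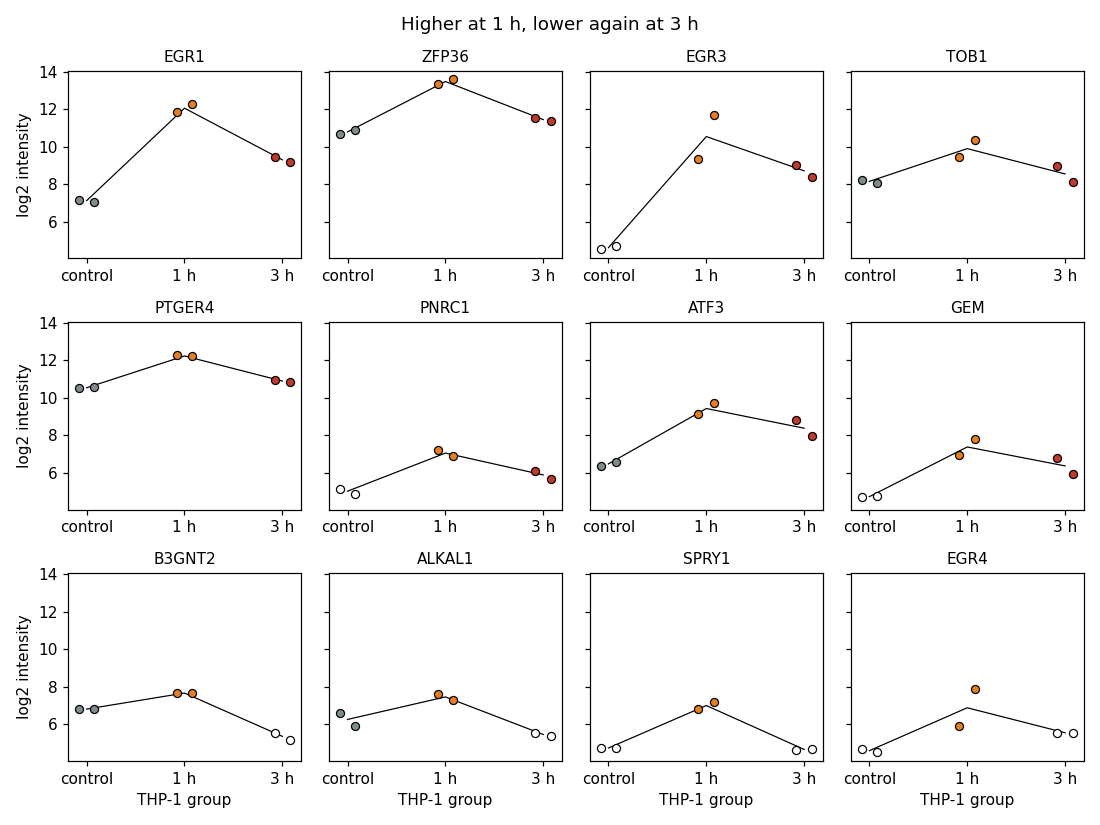
Log2 intensity on each THP-1 array in control, at 1 h and at 3 h for 12 decays, with a line through the group means; open circles mark groups in which neither array was above background. EGR1, ZFP36 and PTGER4 have close replicates at 1 h, while the 1 h arrays of EGR3 lie at 9.37 and 11.71.

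Among the 67 features called higher at 1 h and not called afterwards were several early inflammatory genes. NFKBIA, the inhibitor that returns NF-kB to the cytoplasm, was at 11.29 and 11.13 in control, 14.13 and 14.21 at 1 h and 14.23 and 14.10 at 3 h (-0.01 ± 0.25, 95% interval -0.56 to 0.54). TNFAIP3, a ubiquitin-editing inhibitor of the same pathway, was at 11.90 and 11.87 and then 12.03 and 11.86 (0.06, interval -0.999 to 1.11). Both lay far above control at both times, with overlapping 1 h and 3 h arrays. TNF went from 14.23 and 14.18 to 13.96 and 13.66 (-0.39, interval -1.50 to 0.72), IL1B from 13.13 and 13.53 to 14.22 and 14.17 (0.87, interval -0.03 to 1.76), and the AP-1 subunit JUN from 12.06 and 12.15 to 11.87 and 11.88 (-0.23, interval -0.63 to 0.17). TNF, IL1B and JUN did not overlap between times, though none was called. The intervals leave room for changes of more than 2-fold in TNFAIP3, TNF and IL1B, so these genes were not shown to be steady. The highest value that any probe had after normalization was 14.66, and probes near it have little room to rise.

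The late falls numbered 1422 against 1094 late rises. The counts were 729 against 697 without background correction, 736 against 706 from the authors' value table and 2155 against 724 with median scaling, and at a limit of 4-fold the order turned, with 160 falls against 318 rises. The median of the late falls was -1.35 log2, 160 fell 4-fold or more, 3 fell 16-fold or more, and 411 were below background on both 3 h arrays. At 3 h, 1408 of the 1422 were also called lower than control, as were 26.5% of all features. Here too the limits of the class nearly fix the side of control, and the count is no separate result. LNX2 lay just inside the limit at -1.0006 log2 and ANXA2R-AS1 just outside at -0.9997 log2. Although 1 h against control was not called for any late fall, both 1 h arrays were already below both control arrays in 499 of them (35.1%), against 22.4% of all features. Both 1 h arrays were above both controls in 8.72% of late falls and 25% of late rises, against 15.9% of all features.

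CX3CR1, the fractalkine receptor of patrolling monocytes, was at 11.35 and 11.39 in control, 11.04 and 11.12 at 1 h and 6.87 and 6.49 at 3 h. Its 1 h arrays lay slightly below control, and it fell 21.1-fold after 1 h (-4.40 ± 0.16, adjusted p = 7.63e-08). Its dimmer probe changed by -2.39 log2. CCR2, the receptor for CCL2, stood at 10.91 and 11.02 in control, 10.31 and 10.30 at 1 h and 6.47 and 6.69 at 3 h, a 13.2-fold fall (-3.72 ± 0.16, adjusted p = 1.27e-07). RGS18, a blood-cell regulator that shortens G protein signals, fell 13.2-fold too (-3.72 ± 0.17), from 10.31 and 9.91 to 6.33 and 6.43.

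NFE2, a transcription factor of megakaryocytes and erythroid cells, stood at 10.64 and 10.78 in control, 9.87 and 9.59 at 1 h and 6.88 and 5.74 at 3 h, and fell 10.7-fold (-3.42 ± 0.29, adjusted p = 1.16e-05). Its 1 h arrays already lay below both controls (-0.98 log2, adjusted p = 0.168), just inside the 2-fold limit of the class. GFI1, a repressor that steers granulocyte development, went from 11.05 and 10.95 at 1 h to 7.75 and 7.76 at 3 h and fell 9.51-fold (-3.25 ± 0.12, adjusted p = 7.63e-08). MNDA, a nuclear protein of myeloid cells, fell 10.6-fold (-3.40 ± 0.41), with 3 h arrays at 7.04 and 5.45. NFE2 and MNDA each had 1 of 2 arrays above background at 3 h, so that their folds are not exact.

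WIPF1, an actin regulator that binds the Wiskott-Aldrich protein, went from 8.86 and 8.68 at 1 h to below background at 3 h, at least 7.66-fold lower (-3.88 ± 0.14). The mTOR inhibitor DEPTOR fell at least 4.31-fold (-3.15 ± 0.19), the G protein-coupled receptor GPR18 at least 4.17-fold (-3.25 ± 0.17) and the spindle orientation protein GPSM2 at least 3.98-fold (-2.63 ± 0.27). FAM117B fell 10.5-fold and OTULINL, a relative of the deubiquitinase OTULIN, 9.22-fold. In these 6 genes, as in CX3CR1 and CCR2, both 3 h arrays lay below both 1 h arrays, which the rule for naming them required.

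**Figure D4:**
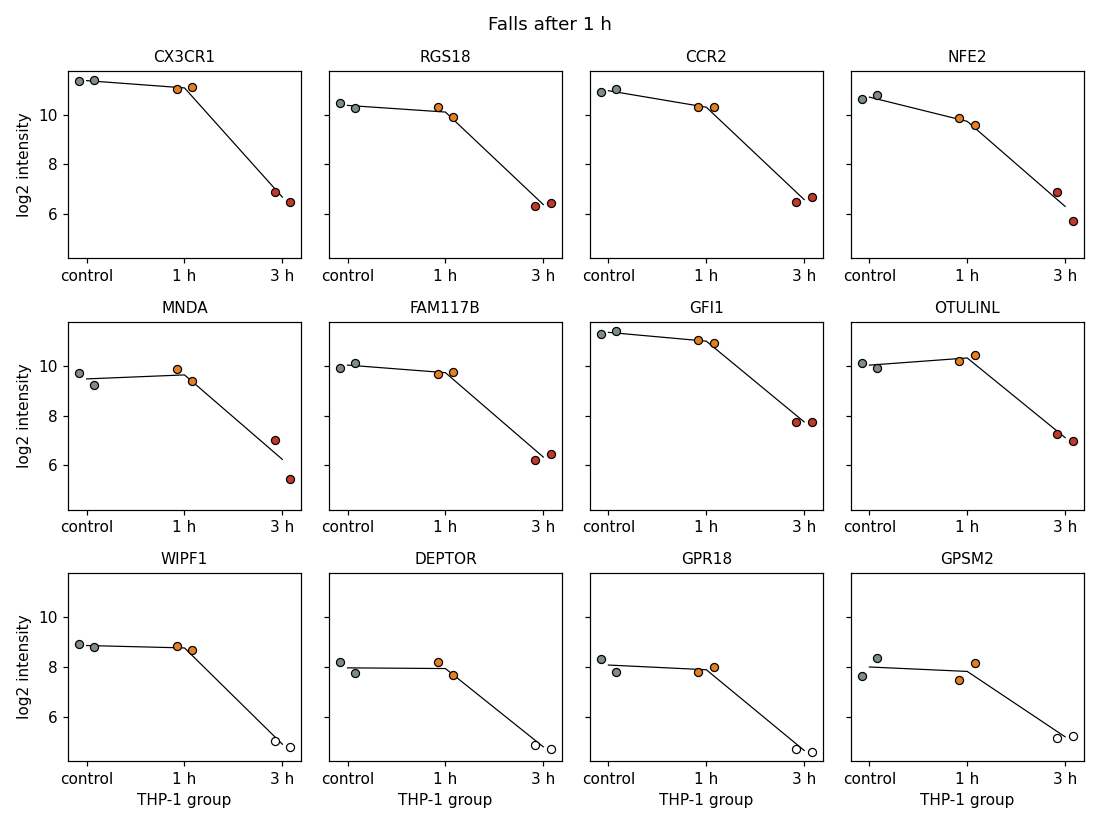
Log2 intensity on each THP-1 array in control, at 1 h and at 3 h for 12 late falls, with a line through the group means; open circles mark groups in which neither array was above background. Both 3 h arrays lie below both 1 h arrays in each panel, in CX3CR1 at 6.87 and 6.49 against 11.04 and 11.12. This lack of overlap was a condition for naming the genes.

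Of the 26 continued falls, KLHL24, a ubiquitin ligase adaptor, stood at 8.62 and 8.64 in control and 7.63 and 7.65 at 1 h and was below background at 3 h, at least 3.50-fold lower than at 1 h (-3.02 ± 0.17, adjusted p = 9.02e-07). PDK4, a kinase that limits pyruvate oxidation, followed the same order, from 7.34 and 7.32 through 6.04 and 6.36 to below background (at least 1.29-fold, -1.69 ± 0.14). The lysosomal transporter SLC46A3 fell at least 3.52-fold, the secretory vesicle protein SCAMP5 3.24-fold, SKIDA1 2.80-fold and the circadian transcription factor DBP at least 1.37-fold. TXNIP, an inhibitor of thioredoxin and of glucose uptake, went from 13.27 and 13.78 through 11.93 and 11.97 to 10.46 and 11.52 (-0.96 ± 0.30, adjusted p = 0.0271), and its call was lost when 1 h replicate 1, 1 h replicate 2 or 3 h replicate 1 was left out (adjusted p 0.0843, 0.0988 and 0.205), with THP-1 arrays alone (0.0675) and without the filter (0.0672). Among the 9 rebounds was DUSP6, the phosphatase that turns off ERK. It stood at 9.24 and 8.80 in control, 7.90 and 7.76 at 1 h and 9.87 and 9.33 at 3 h, a 3.42-fold rise after 1 h (1.77 ± 0.25, adjusted p = 0.000306). ARRDC2, an arrestin-domain protein, rose 2.41-fold by its brightest probe, while its other probe changed by -1.35 log2, so that no direction is given for the gene. CLDND2 rose at least 1.45-fold, ZNF776, with 1 of its 1 h arrays above background, 1.52-fold and TCHH 1.34-fold. The ZNF776 call was lost without 1 h replicate 2 or 3 h replicate 2 (adjusted p 0.114 and 0.0541), and that of TCHH without any 1 of the 4 dust arrays (adjusted p from 0.0503 to 0.140). Both calls were also lost with median scaling (ZNF776 0.141, TCHH 0.517) and with THP-1 arrays alone (0.0554 and 0.104), and that of TCHH without background correction (0.0906) and with the authors' value table (0.0885).

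Gene lists describe these steps further. Lists and members were chosen with earlier results of these data known, so that their counts are a description and no test. Counts are read against the 16.8% of features called higher and 22.6% called lower, and medians against -0.03 log2. Of 18 NF-kB subunits and feedback genes, 14 rose and 0 fell, with a median of 1.52 log2. REL, a subunit of NF-kB, rose 12.1-fold, NFKB2, the precursor of p52, 7.33-fold, NFKB1, the precursor of p50, 6.67-fold and RELB 4.09-fold, while RELA, at 6.90 and 7.25 at 1 h and 7.13 and 6.93 at 3 h, was not called. Partners of TNFAIP3 also rose, TNIP3 at least 19.3-fold and TNIP1 5.94-fold. Of 23 maturation and effector genes, 19 rose and 0 fell, with a median of 2.19 log2. The costimulatory ligand CD80 rose at least 5.93-fold, the costimulatory receptor CD40 5.36-fold, the lymph-node homing receptor CCR7 at least 4.53-fold, CD83 3.61-fold, and the matrix protein THBS1 at least 9.18-fold.

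Of 19 cytokines 7 rose and 0 fell (median 0.78 log2), among them LTA, lymphotoxin alpha, 6.77-fold and IL1A 6.00-fold. IL10 lay between 12.79 and 13.11 on all dust arrays and was not called, and IL6 was below background on all THP-1 arrays at 1 h and 3 h. Of 16 chemokines 6 rose and 2 fell (median 0.78 log2). Rises numbered 3 without 3 h replicate 1, and falls 0 without 1 h replicate 2 or without 3 h replicate 2 and 1 with THP-1 arrays alone or without the filter. CXCL6, which draws neutrophils, rose at least 19.4-fold from 5.52 and 5.43 to 10.29 and 9.51 (4.42 ± 0.43), and CCL5, a T cell and monocyte chemokine, 2.10-fold. CCL4L1, a near copy of CCL4, rose 1.84-fold, a call that was lost without 1 h replicate 1 (adjusted p = 0.0833) or 3 h replicate 1 (0.0515). Of 21 interferon-stimulated genes 9 rose and 3 fell (median 0.54 log2), with ISG20, an RNA exonuclease, 6.46-fold and the antiviral OASL at least 3.02-fold higher. Without 1 h replicate 1, 5 members of this list were called higher.

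NRF2 is the transcription factor that drives antioxidant genes, and of 13 of its targets 11 rose and 0 fell (median 1.58 log2). Beside SRXN1, the glutathione synthesis subunit GCLM rose 9.93-fold from 7.78 and 7.67 to 11.36 and 10.72, TXNRD1 5.78-fold and ME1 5.55-fold. The heme oxygenase gene HMOX1 rose 5.56-fold from 5.93 and 5.04 to 7.61 and 8.31, with 1 of its 1 h arrays above background. The other subunit, GCLC, was at 7.76 and 7.12 and then 7.30 and 7.07 and was not called. Of 7 metallothioneins 4 rose and 0 fell (median 1.05 log2), MT2A, MT1X 3.43-fold, MT1E 2.82-fold and MT1G 2.07-fold. Their sequences are similar, so that these are not separate measures.

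Other lists split by gene. Of 23 immediate-early factors 5 rose and 8 fell (median 0.02 log2): EGR1, EGR3 and EGR4 fell, as did KLF2, which restrains monocyte activation (3.21-fold), and its relative KLF4 (3.07-fold), while KLF10 rose at least 3.43-fold. Without 1 h replicate 2 or 3 h replicate 2, 4 of the list were called lower, and without the filter 5. Without 3 h replicate 1 or without the filter, 3 were called higher. FOS had 1 h arrays at 8.26 and 10.10 and 3 h arrays at 9.98 and 9.64 and was not called. Of 16 MAP kinase feedback genes 8 rose and 3 fell (median 0.79 log2), with the RAS pathway inhibitors SPRED2 7.02-fold higher and SPRY2 3.17-fold lower. The ERK phosphatase DUSP5 rose 4.46-fold, and DUSP1, at 9.64 and 9.58 and then 10.22 and 9.12, was not called. Of 7 mRNA decay factors 2 rose and 4 fell (median -0.74 log2): the antiproliferative BTG1 5.51-fold and the RNase relative ZC3H12C 3.09-fold rose, and ZFP36L2, a relative of ZFP36, fell 4.93-fold.

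Receptors and sensors were lower more often than higher. Of 9 chemoattractant receptors 5 fell and 2 rose (median -1.61 log2). CCR1 fell 6.53-fold, with 1 of its 3 h arrays above background, CXCR2, a neutrophil receptor for CXCL8, at least 1.83-fold and CXCR4, the receptor of CXCL12, 3.40-fold, while the complement receptor C5AR1 rose at least 3.21-fold. Of 15 pattern recognition genes 9 fell and 3, IRAK2, TICAM1 and LY96, rose (median -0.65 log2). TLR2, which senses bacterial lipopeptides, went from 6.77 and 6.38 to below background, and TLR4, the endotoxin receptor, from 7.25 and 6.92 to 5.82 and 6.01 (2.24-fold lower, with 1 of its 3 h arrays above background). Their adaptor MYD88 fell 2.34-fold, the cell-wall sensor NOD2 2.84-fold and the inflammasome sensor NLRP3 2.42-fold. TLR2 fell at least 1.67-fold, and the fall of its partner TLR6 was at least 1.16-fold.

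Of 17 myeloid identity genes 4 rose and 5 fell, NFE2 and GFI1 among them (median -0.04 log2). SPI1, the lineage factor PU.1, rose 2.12-fold, while MYB, a progenitor factor, fell 2.26-fold and CSF1R, the M-CSF receptor, 1.68-fold. Of 9 RGS genes 2 rose and 3 fell (median -0.03 log2), among them RGS20 4.26-fold higher, with 1 of its 1 h arrays above background, RGS19 3.99-fold lower and RGS14 at least 1.68-fold lower. Of 16 genes of the BCL2 family and survival 8 rose and 3 fell (median 0.45 log2). The survival proteins BCL2L1 and BCL2A1 rose 5.87-fold and 4.69-fold, the death-promoting BID 5.07-fold and BCL2L11 at least 3.06-fold, and the death-promoting BIK fell 2.93-fold.

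Of 19 G2/M genes 17 fell and 0 rose (median -1.53 log2), and 16 of the 17 were late falls. KIF20A, a kinesin of cell separation, was at 8.71 and 9.72 in control, 8.45 and 8.88 at 1 h and 5.81 and 6.05 at 3 h and fell 6.64-fold (-2.73 ± 0.29, adjusted p = 5.1e-05), with 1 of its 3 h arrays above background. CCNB2, a mitotic cyclin, fell 5.41-fold from 9.58 and 10.25 to 7.07 and 7.89, and CDC20, an activator of the anaphase-promoting complex, 4.76-fold from 12.86 and 13.39 to 10.41 and 11.33. The phosphatase CDC25C, which starts mitosis, fell at least 3.09-fold. MKI67 was below background at both times, and AURKB was not called (-1.33 ± 0.54, adjusted p = 0.0766). Of 19 G1/S genes 5 fell, 2 rose and 12 were not called (median -0.41 log2). The count of falls was 2 without 3 h replicate 1 or without 1 h replicate 2, and 3 with THP-1 arrays alone or without the filter. Rises numbered 1 without 1 h replicate 1 or without 3 h replicate 2. The G1 cyclin CCND3 fell 2.44-fold and the replication helicase subunit MCM6 2.37-fold. MCM5, another subunit, fell 2.07-fold, and its call was lost without 3 h replicate 1 or 1 h replicate 2 (adjusted p 0.0638 and 0.0673). With scaling by the median, neither of the 2 rises of G1/S genes was called.

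Second probes differed in size for other genes as well. They changed by 0.79 and 0.82 log2 for KLF10, 1.72 for BCL2L1, 1.91 for TXNRD1 and 2.68 for GCLM, and by -1.41 for SPRY1, -0.97 for ALKAL1, -1.02 for KLF4, and -2.44 and -0.98 for CDC25C.

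Of 20 glycolysis genes 3 rose and 3 fell (median 0.09 log2), with the pyruvate kinase PKM 2.22-fold higher. Of 13 cholesterol genes 4 fell and 0 rose (median -0.12 log2), MVK, mevalonate kinase, 2.60-fold, with 1 of its 3 h arrays above background, and SQLE, squalene epoxidase, 1.77-fold. Of 9 genes that answer unfolded proteins or a block of translation, 3 rose and 2 fell (median 0.08 log2), with the pseudokinase TRIB3 2.44-fold higher and the lipoprotein receptor VLDLR 3.70-fold lower. With median scaling 1 of these 9 genes was called higher. Of 12 heat shock genes 1 rose and 2 fell (median 0.07 log2). With median scaling 0 of the 12 were called higher and 1 lower, and with THP-1 arrays alone 0 were called lower. HSPA1A rose 1.51-fold and is nearly identical to HSPA1B, which was not called. The HSPA1A call was lost without 1 h replicate 1 (adjusted p = 0.0739) or 3 h replicate 1 (0.102) and with median scaling (0.109). Of 10 housekeeping genes 1 rose, TFRC by 1.68-fold, and 1 fell, RPL13A by 2.01-fold (median 0.03 log2), and the TFRC call was lost without 1 h replicate 2 (adjusted p = 0.0633). Counts of so few calls moved with single arrays. Falls numbered 1 in glycolysis without 1 h replicate 1, 1 h replicate 2 or 3 h replicate 2, and 2 in the cholesterol list without 1 h replicate 2 or with THP-1 arrays alone. Myeloid identity had 3 falls without 1 h replicate 1 or 3 h replicate 2, and 2 rises without 3 h replicate 1 or 1 h replicate 2.

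**Figure D5:**
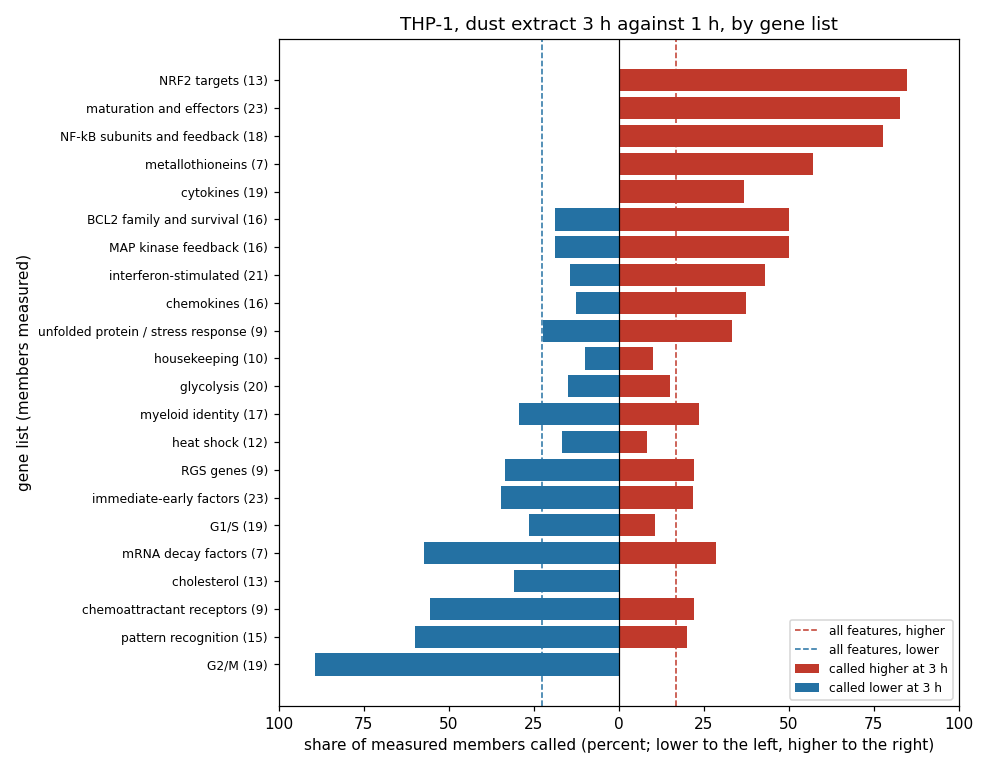
Share of measured members of 22 gene lists called higher (right) or lower (left) at 3 h than at 1 h in THP-1, in percent, with the number measured in parentheses. Dashed lines mark the shares over all features, 16.8% higher and 22.6% lower. Among called members, NRF2 targets and maturation genes have only rises and G2/M genes only falls. The lists were chosen with earlier results of these data known.

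For 12 genes the change from 1 h to 3 h was set against that in BEAS-2B, where 422 of 15489 features (2.72%) were called between the times. The difference between the lines was called for 3596 features (23.2%) and for 7 of the 12 genes, which were picked with earlier results in view. IL23A rose in BEAS-2B as well, from 6.00 and 6.14 to 7.97 and 7.87, and the rise in THP-1 was larger by 3.95 ± 0.25 log2 (adjusted p = 8.52e-06). CCN2 went the other way in BEAS-2B, from 14.06 and 14.10 to 12.38 and 11.92 (-1.93 ± 0.22, adjusted p = 0.00164), a difference of 5.54 ± 0.31 (adjusted p = 3.51e-06). The differences for IL7R (5.97 ± 0.58), IGFBP3 (4.57 ± 0.38) and HMOX1 (2.74 ± 0.51) were called, and none of these genes was called between times in BEAS-2B.

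CX3CR1 and CCR2 were below background in BEAS-2B at both times, so that their differences, -4.20 ± 0.23 and -3.84 ± 0.22, compare a fall with absence. EGR1 fell in both lines, by 2.76 log2 in THP-1 and by 2.15 log2 in BEAS-2B, where it went from 11.96 and 11.93 to 10.10 and 9.48. The difference of -0.61 was not called (95% interval -1.26 to 0.05, adjusted p = 0.171). ATF3 fell by 1.05 log2 in THP-1 and by 2.57 log2 in BEAS-2B (difference 1.52, interval 0.41 to 2.64, adjusted p = 0.0516). The differences for EGR3 (1.07, interval -0.69 to 2.83), TXNIP (-1.02, interval -1.97 to -0.08) and CCL20 (3.71, interval 0.85 to 6.57, adjusted p = 0.0632) were not called either, and these intervals do not show that the lines acted alike.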

How the data were processed

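For each of 47320 probes on 12 arrays of 1 chip, the deposited raw table gives a linear intensity, its standard error over beads, a bead count and a p-value of detection (units per the file headers). The submitters' processing notes name GenomeStudio 2011.1. The authors' value table, an intensity without a stated normalization, was used as an alternative.

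Signals were background-corrected and quantile-normalized over 12 arrays with neqc (limma 3.58.1, R 4.3.3, offset 16). A probe was kept at a detection p under 0.01 on both arrays of at least 1 of 6 groups (19045 probes). Of the probes, 30112 had 1 gene symbol, 8 several and 17200 none; for genes with several kept probes the brightest was used. Means of the 6 groups were fitted to all 12 arrays with lmFit and eBayes, with a spread shared by the groups. Calls were made at an adjusted p (Benjamini-Hochberg over all 15489 features) under 0.05. The fit was tested on simulated data. A fold "at least" sets a group below background on both arrays to the lowest signal above background, or to its own signal where higher.

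In each class the 8 largest measured changes and 4 largest bounds were named among genes whose arrays did not overlap, up to 6 continued falls and rebounds, up to 4 called members per list with the smallest p, and 12 genes for the comparison of lines. Further list members were named after their values were seen. Members and lists were chosen with earlier results of these data known. Alternatives changed background correction, scaling, filter, probes, arrays fitted, starting values, the fold limit and a replicate block, and left out each THP-1 array. The precision is limited by 2 arrays per group. A microRNA-annotated probe among the rebounds is not described.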

Additional observations from a re-analysis of the deposited data

Results flagged for a closer look

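The change from 1 h to 3 h differed between THP-1 and BEAS-2B, by limma's test of the difference, in 7 of the 12 genes compared. The same test called 3596 of 15489 features (23.2%). The 12 genes were picked with earlier results in view, so that their count does not show how common a difference is. The change was higher in THP-1 by 3.95 log2 for IL23A, 5.97 for IL7R, 4.57 for IGFBP3, 5.54 for CCN2 and 2.74 for HMOX1. It was lower in THP-1 by a difference of -4.20 for CX3CR1 and -3.84 for CCR2, both below background in BEAS-2B. Dose and line differed together and cannot be told apart.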

How the results depend on the processing

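Of 127 named genes, none changed direction under any alternative, but several alternatives could not have turned a direction. Where 3 h and 1 h arrays did not overlap, as the rule for naming class genes required, leaving out an array keeps the sign. Leaving out a control array or the filter does not alter the change from 1 h to 3 h itself. The counts of late rises and late falls followed the limit and the scale: 697 and 729 without background correction, 724 and 2155 with median scaling, 706 and 736 from the authors' value table, 1926 and 2751 at a limit of 1.5-fold, and 318 and 160 at 4-fold. Median scaling left 1481 features called higher and gave 43 continued falls. With THP-1 arrays alone there were 16 decays, 5 continued falls and 1 rebound, and without a filter 16 continued falls; the cause was not tested. Leaving out each THP-1 array in turn gave 4655 to 6303 calls, 1975 to 2705 higher and 2680 to 3598 lower, with 1083 to 1135 late rises, 50 to 108 continued rises, 15 to 45 decays, 1389 to 1570 late falls, 3 to 34 continued falls and 4 to 16 rebounds. List members called numbered 97 to 115 higher and 52 to 78 lower, and 7 to 9 of the 12 genes differed between lines. The lowest decay count, 15, came without 1 h replicate 2. With replicate number as a block, 6336 features were called (2729 higher, 3607 lower) and no named gene lost its call. Same-numbered THP-1 arrays deviated together at correlations of 0.24 to 0.34; with 2 numbers per group, and no shared source in the labels, this does not settle whether the numbers pair the arrays. Of the 44 other probes for named genes, 42 moved in the same direction.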
